A study of Mus musculus with 2 samples.

Results

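Genes of the interferon response and of nucleic acid sensing were compared between WT and CD47 KO mice in brain mononuclear cells. The list holds 36 genes, and every probe set whose annotation gives exactly 1 gene symbol was taken, if that symbol was one of these genes or an older name of it. In this way 34 of the 36 genes were measured through 58 probe sets, among 18194 genes named on the array. *Ifi44* and *Isg15* had no such probe set, so their signals are not analysed here, and they enter the count of promoters only. The list was divided into 6 sensors of RNA and DNA, 6 transcription factors and 24 effectors. WT cells came from 7 pooled mice aged 10 to 15 wks, and CD47 KO cells came from 6 pooled mice aged 12 to 16 wks that are labelled CD47 null. All mice are labelled male and were kept free of specific pathogens. The CD47 KO mice carry a Cd47-/- allele made in earlier work, with the background strain of both genotypes not given in the sources used here. Each pool was hybridised to 1 array, so there are no replicates, and no difference below has a p-value or an error between animals.

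Cells detect foreign or misplaced nucleic acids with sensors, of which RIG-I-like helicases bind RNA in the cytosol and cGAS binds DNA. Adaptor proteins pass the signal to kinases and to IRF transcription factors, and interferons are secreted. Interferons act through their receptors on transcription factors, STAT2 and IRF9 among them, which switch on a large set of interferon-stimulated genes, many of them antiviral effectors. In the brain, microglia are among the cells that respond in this way.

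The cells behind the values were a mixture. The 13 measured microglia markers were all expressed and all higher in CD47 KO cells, with a median Log2 ratio (KO/WT) of 0.19 and a summed signal of 101719 (WT) and 118934 (CD47 KO). Markers of other cells differed too, with median Log2 ratios of 0.30 for astrocytes (6 of 6 expressed markers higher), -0.20 for neutrophils (5 of 7 lower), -0.29 for monocytes (4 of 5 lower), -0.83 for border macrophages (4 of 4 lower), -0.18 for endothelial cells (5 of 7 lower), -0.51 for pericytes and smooth muscle (4 of 6 lower) and -0.82 for fibroblasts and meninges (5 of 6 lower). Plasmacytoid dendritic cells, known as producers of interferon, had a median of -0.01 (3 of 5 lower), with single markers between -1.07 and 0.96. Among other cells the medians were -0.35 for B cells (4 of 4 lower), -0.27 for choroid plexus (3 of 5 lower), -0.18 for T cells (2 of 4 lower), 0.10 for NK cells (2 of 3 higher), 0.04 for neurons (4 of 6 higher) and 0.02 for oligodendrocytes (3 of 5 higher). No marker was at 0, and the part of these shifts in the values below was not tested. In such bulk samples, fewer cells of a type and less RNA per cell cannot be told apart. On its brightest probe set, *Cd47* itself gave 5816 in WT and 1688 in CD47 KO cells. The labels give male animals, while *Xist*, the RNA of X inactivation in females, had signals of 7069.9 and 6529.6. The Y-linked gene *Eif2s3y* had 189 and 461, and 165 and 146 on its second probe set. The *Xist* signals do not go with the male label, and whether the mix of sexes differed between the pools was not tested.

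The interferon response genes did not share a direction in CD47 KO cells. A gene was taken as expressed when the signal of its brightest probe set was at or above the median of the same array (161 for WT, 146 for CD47 KO) in WT, CD47 KO or both, and 28 members did so. In CD47 KO cells 13 of these were higher and 15 lower, with a median Log2 ratio of -0.066, beside 50.3% higher and a median of 0.0033 among all 11683 expressed genes. Past 2-fold, *Cgas* was higher, while *Gbp3* and *Dhx58* were lower. Among all expressed genes, 3.53% were more than 2-fold higher and 5.41% more than 2-fold lower, so the shares of the members, 3.57% and 7.14%, lay near the background. Of the expressed members, 18 (64.3%) lay within 0.5 of 0 on the log2 scale, as did 70.9% of all expressed genes. *Dhx58*, *Gbp3*, *Usp18* and *Parp9* passed the signal threshold on the brighter of their arrays only, which favours large differences. On both arrays the median was reached by 24 members, of which 11 were higher (background 50.4%). Past 2-fold, 1 was higher (background 1.28%) and none lower (background 2.42%). With no threshold, 19 of the 34 measured members were higher (55.9%, beside 47.3% of all named genes), 5 were more than 2-fold higher (background 8.18%) and 2 more than 2-fold lower (background 12.2%).

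**Figure D1:**
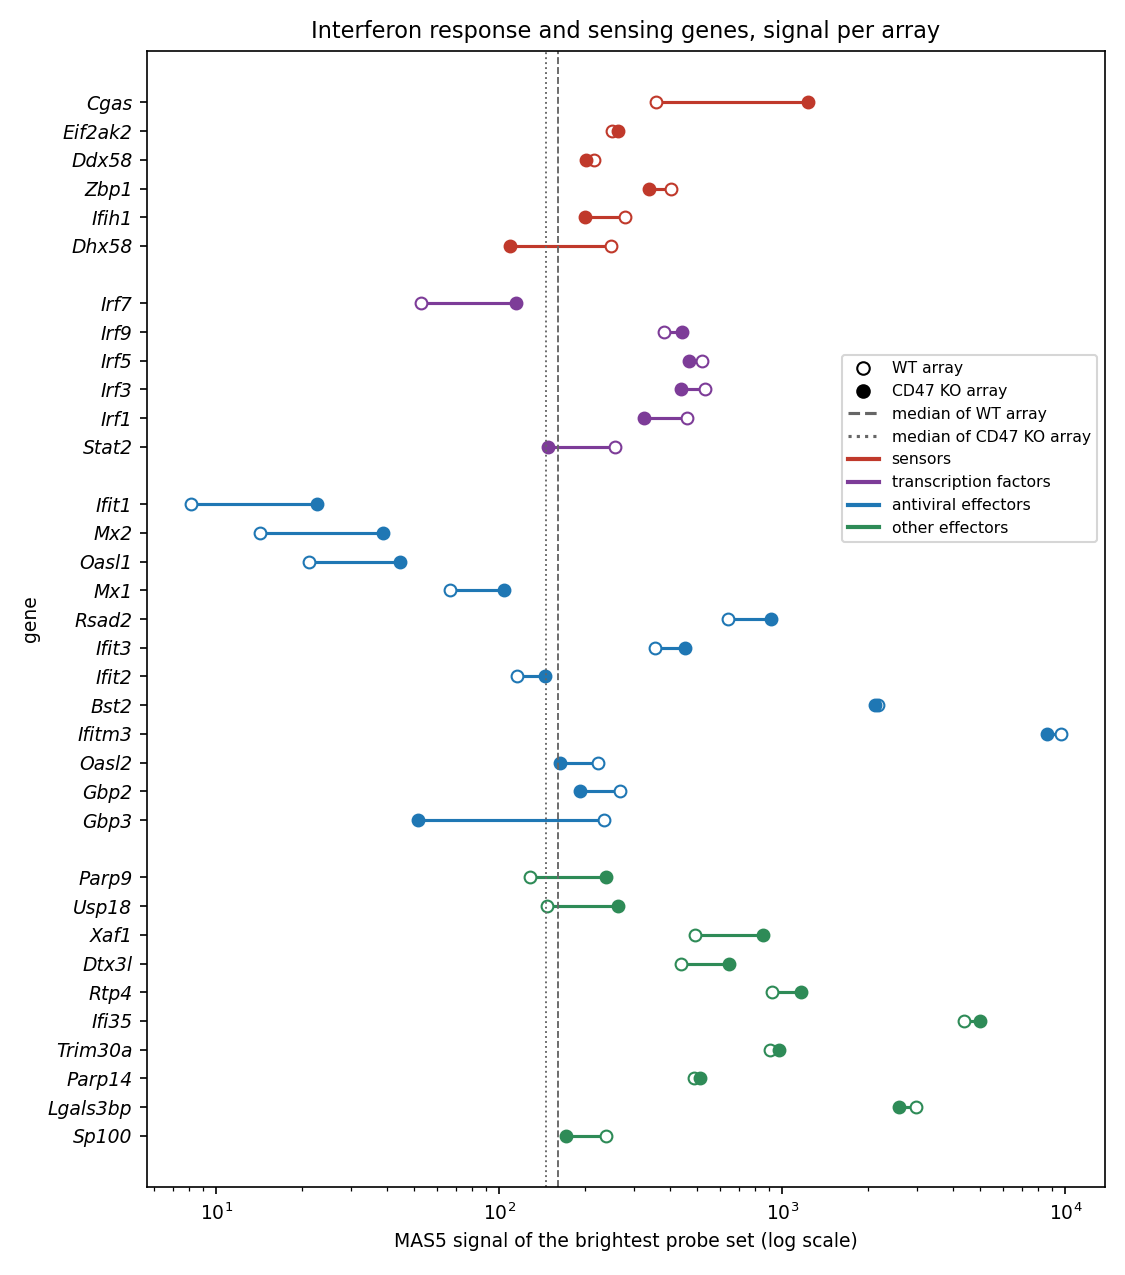
MAS5 signal (log scale) of the brightest probe set of each measured member on the WT array (open circles) and that of CD47 KO (filled circles), grouped by role, with 1 array per genotype. *Cgas* had 357 and 1232, and the 6 members left of both lines that mark the array medians were all higher in CD47 KO cells.

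Differences between the probe sets of 1 gene gave the only internal measure of error. Its SD for 1 probe set, taken from the brightest and the next expressed probe set of all genes, was 0.77 in the dimmest 25% of expressed genes, 0.59 and 0.49 in the next groups of 25% and 0.29 in the brightest 25%. This SD also holds probe effects and splice forms and says nothing of variation between animals. By this yardstick 20 of the 28 expressed members lay within 1 SD of 0. The 8 past it were *Cgas*, *Xaf1*, *Parp9*, *Usp18* and *Rsad2*, which were higher, and *Gbp3*, *Dhx58* and *Stat2*, which were lower. Their share of 28.6% lay beside 26.6% of all expressed genes. *Parp9*, *Usp18*, *Gbp3* and *Dhx58* reached the median on 1 array only, which favours large differences. Of the expressed genes in the dimmest 25%, 23.9% were past 2-fold, beside 3.48% of those at or above the median on both arrays. *Cgas* and *Gbp3* alone lay outside the middle 95% of expressed genes of like brightness, which ran from -0.91 to 0.81 for the 25% that hold *Cgas* and from -2.05 to 1.77 for those that hold *Gbp3*.

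**Figure D2:**
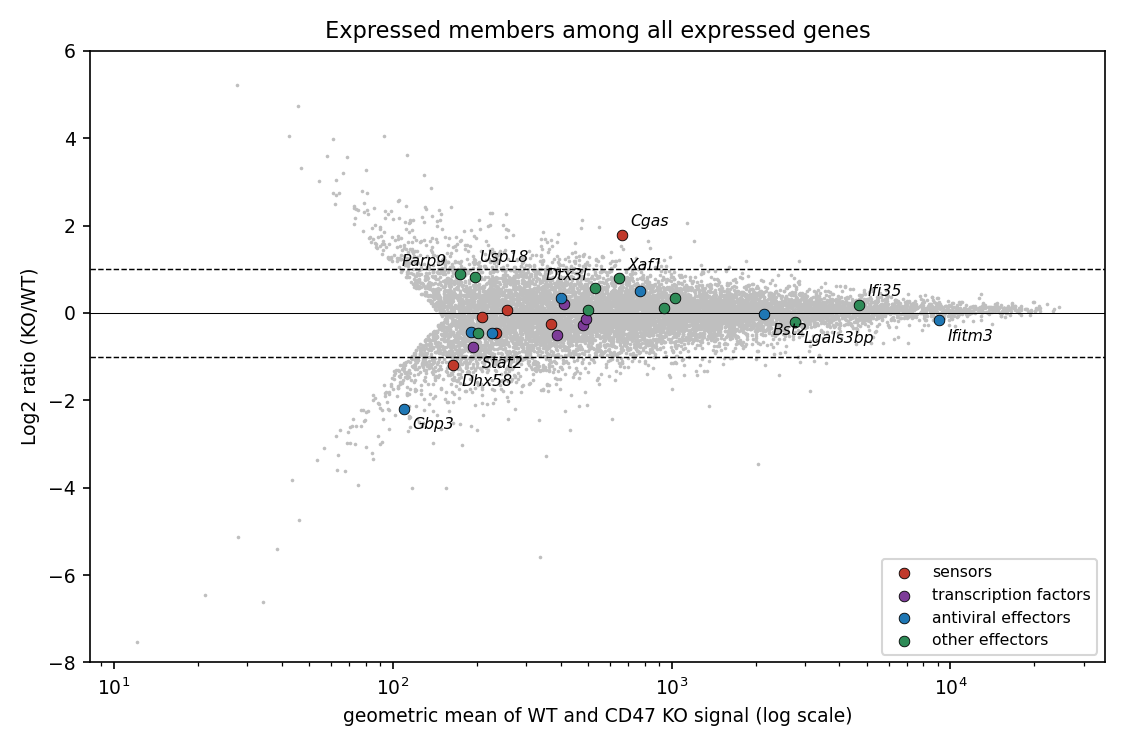
Log2 ratio (KO/WT) of every expressed gene (grey) against the geometric mean of both its signals (log scale), with expressed members coloured by role and dashed lines at 2-fold. *Cgas* (1.79) lies at the upper edge of the grey cloud at its brightness, while *Gbp3* (-2.19) and *Dhx58* (-1.19) lie at low signals, where the cloud is wide.

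Interferon-stimulated genes are known for the interferon-stimulated response element, the DNA element that IRF proteins bind. To show which of the members carried its letters, the promoter windows of the RefSeq table (GRCm38.p6, from 250 bases before to 50 bases after a start) were searched on both strands for GAAA, 2 bases of any kind and GAAA again. Of 28 members with a window, 13 (46.4%) held a match in at least 1 window, as did 3.99% of all 27025 genes in the table. In 9 of these members a match lay before the start, and in *Ifih1*, *Ddx58*, *Eif2ak2* and *Ifitm3* it lay after the start only. The letters of the gamma-activated site, TTCNNNGAA, which read the same on both strands, were found in 6 of the 28 members (21.4%) and in 9.55% of all genes. The elements stand close together in some windows, and in *Bst2* the match to the gamma-activated site shares bases with the first of its response elements. A match is a description of the letters and not a measured binding site. The 250 bases before the start are shown for the 4 expressed members with a window whose brightest probe sets differed most between the genotypes, with matches to the response element in capitals and read 5′ to 3′ on the strand of the gene.
*Gbp3*, chr3:142559794-142560043, plus strand: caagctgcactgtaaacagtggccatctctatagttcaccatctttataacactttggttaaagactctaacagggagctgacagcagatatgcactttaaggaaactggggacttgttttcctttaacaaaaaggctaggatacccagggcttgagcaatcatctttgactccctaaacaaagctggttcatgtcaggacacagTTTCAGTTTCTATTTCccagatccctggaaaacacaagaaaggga
*Cgas*, chr9:78443238-78443487, minus strand: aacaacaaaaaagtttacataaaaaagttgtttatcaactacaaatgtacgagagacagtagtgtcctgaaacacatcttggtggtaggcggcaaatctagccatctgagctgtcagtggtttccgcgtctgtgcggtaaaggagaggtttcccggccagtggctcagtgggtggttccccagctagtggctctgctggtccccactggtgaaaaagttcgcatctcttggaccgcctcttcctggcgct
*Xaf1*, chr11:72301379-72301628, plus strand: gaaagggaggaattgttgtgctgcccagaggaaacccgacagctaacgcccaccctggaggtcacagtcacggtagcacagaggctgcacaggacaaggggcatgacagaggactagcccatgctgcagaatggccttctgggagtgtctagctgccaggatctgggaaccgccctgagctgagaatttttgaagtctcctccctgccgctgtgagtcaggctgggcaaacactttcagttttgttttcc
*Stat2*, chr10:128270248-128270497, plus strand: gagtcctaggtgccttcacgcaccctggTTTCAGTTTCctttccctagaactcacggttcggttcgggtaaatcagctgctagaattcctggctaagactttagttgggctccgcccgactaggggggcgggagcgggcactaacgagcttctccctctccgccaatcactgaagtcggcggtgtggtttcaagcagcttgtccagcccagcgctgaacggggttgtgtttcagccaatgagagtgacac

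The *Gbp3* window holds 2 overlapping matches and the *Stat2* window 1, all on the opposite strand to the gene, while the windows of *Cgas* and *Xaf1* hold none. Members with a match had Log2 ratios of either sign. Among the 11 expressed members with a match, 4 were higher and the median Log2 ratio (KO/WT) was -0.10. Among the 11 expressed members with a window but no match, 5 were higher and the median was -0.15. Of all expressed genes 50.3% were higher, with a median of 0.0033. Stretches of 30 bases around the first match of 4 more members show the same element ahead of genes with Log2 ratios of 0.35 (*Ifit3*), 0.50 (*Rsad2*), -0.03 (*Bst2*) and -0.47 (*Gbp2*), again with the matches in capitals.
*Ifit3*, chr19:34583363-34583392, plus strand: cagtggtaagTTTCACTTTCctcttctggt
*Rsad2*, chr12:26456553-26456582, minus strand: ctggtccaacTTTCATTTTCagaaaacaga
*Bst2*, chr8:71537580-71537609, minus strand: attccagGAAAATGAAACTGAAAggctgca
*Gbp2*, chr3:142620594-142620623, plus strand: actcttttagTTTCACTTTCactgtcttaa

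Among the sensors, 2 were higher and 4 lower, with a median Log2 ratio of -0.17, beside 50.3% higher among all expressed genes. *Cgas*, which encodes the cytosolic DNA sensor that makes the messenger cGAMP, had signals of 357 (WT) and 1232 (CD47 KO), a 3.45-fold difference. Its other probe set was dimmer than the median of both arrays and had 141 and 130.02, a Log2 ratio of -0.12, so the probe sets of *Cgas* did not share a direction. The RIG-I-like helicases were all lower on their brightest probe sets. *Ddx58*, the gene of RIG-I, had 216 and 202, and a second expressed probe set had a Log2 ratio of -0.33. *Ifih1*, the gene of MDA5, a sensor of long double-stranded RNA, had 277 and 200.3, a Log2 ratio of -0.47. *Dhx58*, the gene of LGP2, a helicase that modulates the other members of this family, had 249 and 109, a Log2 ratio of -1.19. The remaining *Dhx58* probe sets were below the median on both arrays, with signals of 3.87 and 142 on one and 67.1 and 67.8 on the other. *Zbp1*, a sensor of nucleic acids in the Z form, had 403 and 339 (-0.25). *Eif2ak2*, which encodes the RNA-activated kinase PKR, had 251 and 263, with Log2 ratios of 0.07 and 0.39 on its expressed probe sets. A dimmer *Eif2ak2* probe set, below both medians, had -0.88. Apart from those of *Cgas* and *Dhx58*, the differences of the sensors on their brightest probe sets were smaller than the SD between probe sets.

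Among the 5 expressed transcription factors, 1 was higher and 4 lower, beside 50.3% higher among all expressed genes. Their median Log2 ratio was -0.28, and *Stat2* alone lay past 1 SD between probe sets. *Stat2*, a transcription factor of the response to type I interferons, had signals of 256 (WT) and 148 (CD47 KO), for a Log2 ratio of -0.79. A dimmer *Stat2* probe set, below both medians, gave -0.04. Its partner *Irf9* was slightly higher, with 382 and 440.2 (0.20). *Irf1*, a factor induced by interferon-γ, had 461 and 326 (-0.50). *Irf3*, which the sensing pathways activate directly, had 533 and 438 (-0.28) on its brightest probe set, whose name marks possible cross-hybridisation, while its other expressed probe sets had 0.29 and -0.14. *Irf5*, a factor of Toll-like receptor signaling, was likewise divided, with -0.15 and 0.16. The signals of *Irf7*, the factor that amplifies interferon production, were 52.7 and 115 and lay below the median of both arrays.

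The antiviral effectors were examined apart from the other effectors after the data were seen. Their direction depended on whether dim genes were counted. Of 7 that were expressed, 5 were lower and 2 higher, with a median Log2 ratio of -0.17, beside 50.3% higher among all expressed genes. Of all 12 that were measured, 7 were higher and 5 lower, with a median of 0.34, beside 47.3% higher among all named genes. The brightest of them had small Log2 ratios. *Ifitm3*, the brightest member of the whole list, which encodes a membrane protein that blocks viral entry, had signals of 9670.03 and 8597 (-0.17), and *Bst2*, the gene of tetherin, had 2176 and 2125 (-0.03). The guanylate-binding protein genes of the list, whose products attack vacuoles of intracellular pathogens, were both lower. *Gbp3* had 234 and 51.4, a Log2 ratio of -2.19 on its single probe set, and *Gbp2* had 267 and 193 (-0.47) on a probe set whose name marks possible cross-hybridisation. *Oasl2*, which encodes a protein related to the oligoadenylate synthetases, had 223 and 164 (-0.44). *Rsad2*, the gene of viperin, was higher with 645 and 914 (0.50), while its dimmer probe sets, which were below both medians, had -0.35 and -0.68. *Ifit3*, whose product binds other IFIT proteins, had 355 and 451 (0.35). Genes of the *Gbp*, *Ifit*, *Ifitm* and *Oasl* families have close relatives in the genome, and how far their probes cross-hybridise was not tested.

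Another set of effectors was below the median on both arrays and was nevertheless higher in CD47 KO cells throughout. *Ifit1* had signals of 8.10 and 22.6, *Mx2* of 14.3 and 38.9, *Oasl1* of 21.2 and 44.7 and *Mx1* of 67.1 and 104. RefSeq lists *Mx1* and *Mx2*, the genes of dynamin-like antiviral GTPases, as transcribed pseudogenes in its mouse reference. *Ifit2*, with 116 and 145, missed the threshold by the smallest margin, since the median of the CD47 KO array is 146. With *Irf7*, all 6 members below both medians were higher, 4 of them by more than 2-fold. Of all 6511 genes below both medians, 41.9% were higher and 16.5% more than 2-fold higher. The SD between probe sets was not computed for genes in this range, so the Log2 ratios of these 6 genes carry no measured precision.

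The other effectors, a mixed set of induced genes that includes *Usp18* and genes of ADP-ribosylation, were mostly higher. This set, too, was examined apart after the data were seen. Of 10 measured, all of them expressed, 8 were higher and 2 lower, beside 50.3% higher among all expressed genes. Their median Log2 ratio was 0.27, and none passed 2-fold. Of the higher genes, *Parp14*, *Dtx3l*, *Parp9* and *Rtp4* lie on the chromosome that holds *Cd47*, and the cause of their direction was not tested. With the array median required on both arrays, which leaves out *Parp9* and *Usp18*, 6 of 8 were higher (background 50.4%) and the median was 0.15. The highest ratios were those of *Parp9*, with signals of 128 (WT) and 237 (CD47 KO) and a ratio of 0.89, and *Usp18*, the gene of the protease that removes ISG15 and restrains the interferon receptor, with 148 and 262 (0.82). PARP9 works as a complex with the ubiquitin ligase DTX3L. *Dtx3l* had 438 and 646 (0.56), with 0.02 on a second expressed probe set, and *Parp14*, the gene of a further ADP-ribosyltransferase, had 489 and 512 (0.07). A dimmer *Parp14* probe set, below both medians, had -0.195. *Xaf1*, a gene that promotes apoptosis, had 493 and 852 (0.79), and a dim probe set below both medians had -1.89. The 4 brightest genes of this set had ratios between -0.20 and 0.34. *Ifi35*, which encodes a binding partner of Nmi, had 4393 and 5009.9 (0.19), with 0.46 and 0.51 on its other probe sets. The name of its brightest probe set marks possible cross-hybridisation or shared transcripts. *Rtp4* had 916 and 1163 (0.34), and *Trim30a*, a TRIM family gene, had 905 and 973 (0.10), with 0.44 on its other probe set. The genes that were lower were *Sp100*, a nuclear body gene, with 238 and 172 (-0.47), and *Lgals3bp*, a gene of a secreted galectin-binding glycoprotein, with 2969 and 2583 (-0.20). A dimmer *Sp100* probe set, below both medians, had 0.375. Over all effectors that were expressed, 10 were higher and 7 lower and the median Log2 ratio was 0.10. Among all expressed genes 50.3% were higher and the median was 0.0033. Over the 22 effectors that were measured, 15 were higher and the median was 0.34, beside 47.3% and -0.034 among all named genes.

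**Figure D3:**
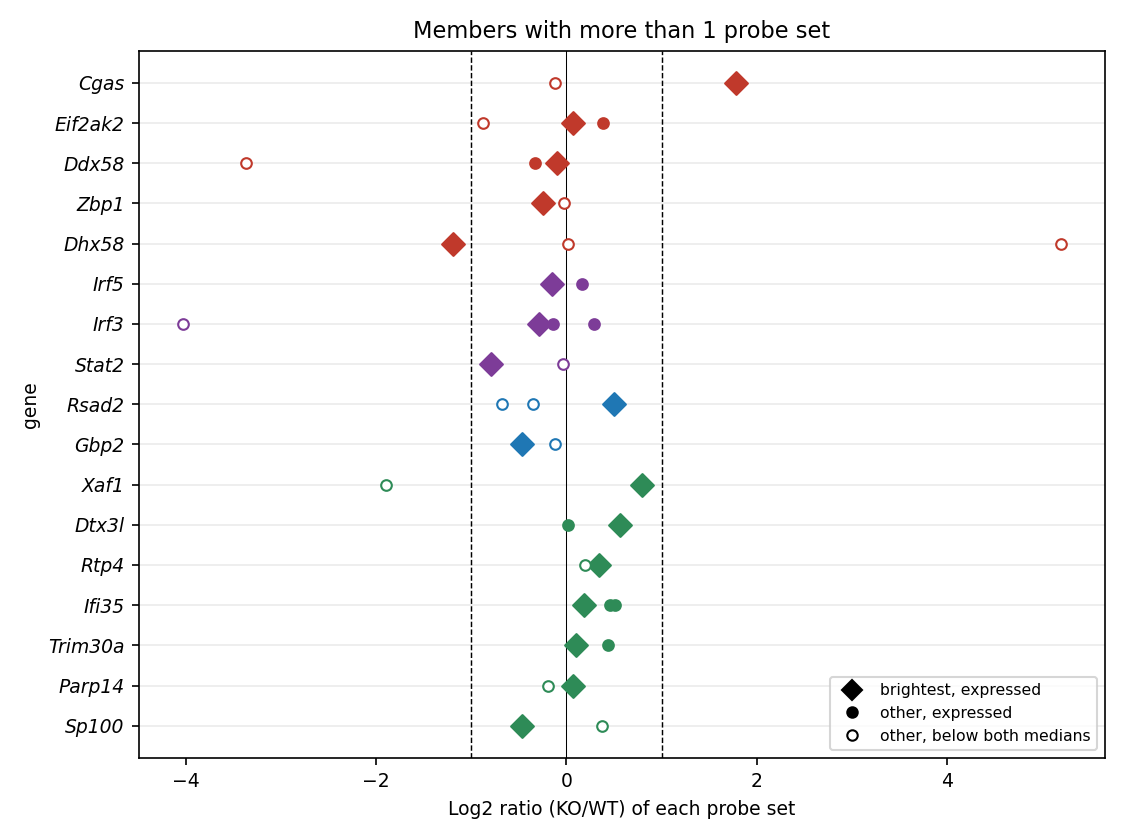
Log2 ratio (KO/WT) of each probe set of the members that have more than 1, with the brightest probe set of a gene as a diamond, other expressed probe sets as filled circles and probe sets below both array medians as open circles. The dashed lines mark 2-fold, and the probe sets farthest from 0, such as that of *Dhx58* at 5.20 and that of *Irf3* at -4.03, are below both medians.

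Agreement between probe sets could be read for 7 members that have a second expressed probe set. In 5 of them (*Ddx58*, *Eif2ak2*, *Trim30a*, *Dtx3l* and *Ifi35*) all expressed probe sets had the same sign, and in *Irf3* and *Irf5* they did not. None of the members past 2-fold had a second expressed probe set.

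The other genes of the pathway did not share a direction either. Of 94 expressed genes in 6 lists, 50 were higher and 44 lower, beside 50.3% higher among all expressed genes. Their median Log2 ratio was 0.02. Past 2-fold, 4 were higher and 2 lower, beside 3.53% and 5.41% of all expressed genes. For the ligands themselves, the probe sets were dim. Of 8 measured interferon genes, *Ifna1* with signals of 198 and 152 (-0.38) and *Ifng* with 189 and 235 (0.32) were expressed, and *Ifnb1* had 30.4 and 29.8. The name of the only *Ifna1* probe set marks possible cross-hybridisation. In the list of receptors, JAK-STAT proteins and their inhibitors, 10 of 18 expressed genes were higher, beside 50.3% of all expressed genes. None of the 18 passed 2-fold. *Ifngr2*, a subunit of the interferon-γ receptor, had 1022.5 and 1485 (0.54), and *Irf8*, a factor that microglia depend on, had 888 and 1256 (0.50). The probe sets of *Socs3*, a feedback inhibitor, gave 0.25, 0.20 and -0.24 from the brightest to the dimmest. All but the dimmest have names that mark possible cross-hybridisation. *Ifnar1*, a subunit of the receptor for type I interferons, was divided between its probe sets, with -0.36 on the brighter and 0.24 on the dimmer.

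Downstream of the sensors, 4 of 11 expressed adaptor and kinase genes were higher and 7 lower, beside 50.3% higher among all expressed genes. Their median Log2 ratio was -0.10. *Mavs*, the adaptor gene of the RIG-I-like helicases, had signals of 225 and 97.2 (-1.21), with -0.98 on a second probe set, and *Tank*, an adaptor gene of the kinase TBK1, had 293 and 115 (-1.34). *Azi2*, another TBK1 adaptor gene, had 386 and 808 (1.07), with 0.38 on its second expressed probe set. *Sting1*, which encodes the receptor of cGAMP, had 3562 and 3463 (-0.04). *Tbk1* itself had 755 and 589 (-0.36), with 0.12 on the other probe set. *Irak1*, a kinase gene of Toll-like receptor signaling, gave -0.82, -0.34 and 0.41 in order of brightness, and *Traf6*, a ubiquitin ligase gene, gave 0.27, -0.55 and -1.04. Of the genes past 2-fold, *Azi2* alone reached the median on both arrays, since *Mavs* and *Tank* were below it on the CD47 KO array. The brightest probe sets of *Mavs*, *Tank*, *Azi2*, *Sting1*, *Tbk1* and *Irak1* have names that mark possible cross-hybridisation or shared transcripts.

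Of the other nucleic acid sensors, 5 of 8 expressed genes were higher, beside 50.3% of all expressed genes. Their median Log2 ratio was 0.18. *Tlr7*, the endosomal receptor gene for single-stranded RNA, had signals of 1827 and 2157 (0.24), with 0.31 and 0.14 on its other probe sets. The name of its brightest probe set marks possible cross-hybridisation. *Dhx9*, a helicase gene, gave 0.32 and -0.06 in order of brightness, and *Lrrfip1* gave 0.56, -0.34 and -3.50. *Oas1a*, an oligoadenylate synthetase gene, was lower with 557 and 329 (-0.76). Genes that clear or edit nucleic acids were evenly divided, 5 higher and 5 lower, beside 50.3% higher among all expressed genes. *Pld3*, an endolysosomal nuclease gene, had 2306 and 3391 (0.56), whereas *Rnaseh2a*, a subunit gene of the ribonuclease for RNA-DNA hybrids, had -0.44, *Adar*, the RNA editing gene, had -0.40 and *Rnaset2a*, a ribonuclease gene, had -0.36. *Pnpt1*, an exoribonuclease gene of mitochondria, gave 1.23 on the brightest probe set, from a WT signal below the array median, and -0.10 on another, which alone is left without probe sets whose names mark shared transcripts.

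The broadest list, 45 expressed interferon-induced genes that are not members, had 25 higher and 20 lower and a median Log2 ratio of 0.06. Among all expressed genes 50.3% were higher. The largest differences among its bright genes ran both ways. *Trim21*, an antibody receptor gene of the cytosol, had signals of 385 and 693 (0.85), while its other expressed probe set had 212 on both arrays, and *Isg20*, an exonuclease gene, had 485 and 822 (0.76). *Ifitm1*, a relative of *Ifitm3*, had 2227 and 1273 (-0.81), and *Slfn2*, a Schlafen gene, had 759 and 440.2 (-0.79). *Epsti1* and *Gbp6* passed 2-fold upwards with 1.55 and 1.02, both from WT signals below the array median, and a second expressed *Epsti1* probe set had -0.86.

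**Figure D4:**
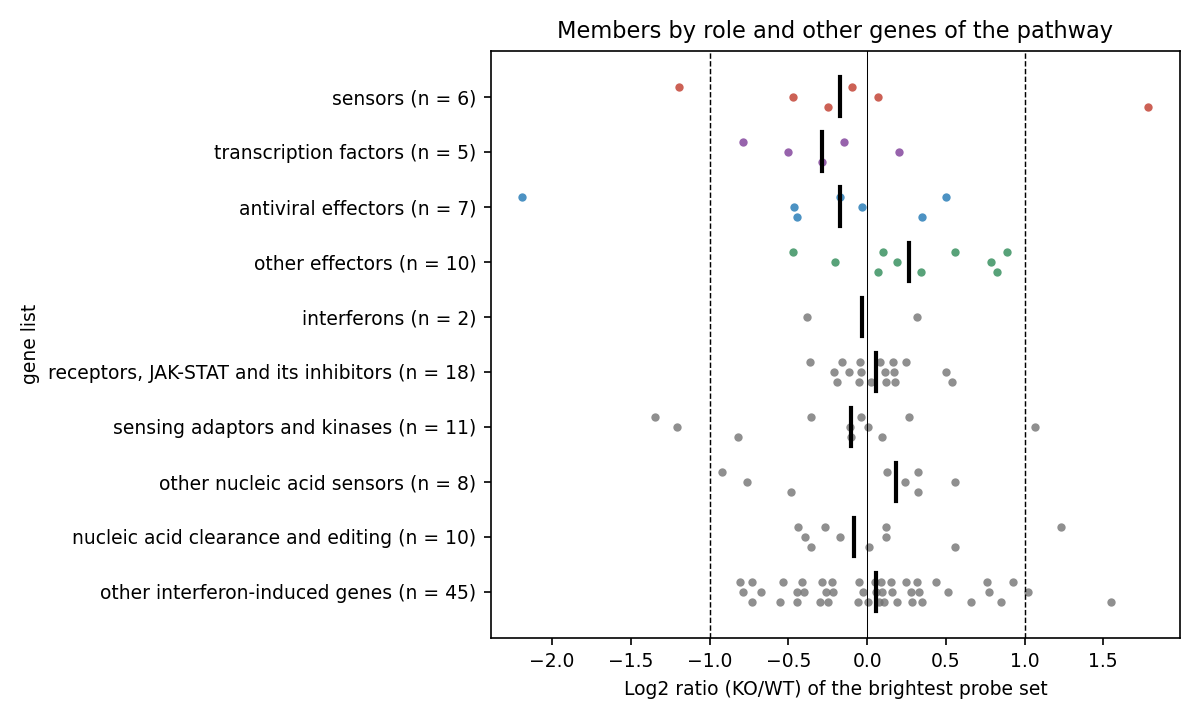
Log2 ratio (KO/WT) of the brightest probe set of each expressed gene (points) and the median of each list (black bars), with members coloured by role, other genes of the pathway in grey, the number of genes in parentheses and dashed lines at 2-fold. The medians run from -0.28 for the transcription factors to 0.27 for the other effectors, and most points of every list lie within 2-fold. The antiviral effectors and the other effectors were examined apart after the data were seen.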

How the data were processed

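RNA of brain mononuclear cells, collected at the interface of a Percoll gradient, was pooled by genotype. From each pool, 20 ng was amplified and put on 1 Affymetrix GeneChip Mouse Genome array. The authors deposited MAS5 signals, an intensity on a linear scale for each probe set, from the Expression Console Software (version not given in the sources used here). With 2% trimmed at each end, the mean was 500.002 on each array, as scaling to a common target gives. Detection calls are not used here. Precision is limited by the number of arrays.

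Of 45101 probe sets (64 controls), the platform annotation gives exactly 1 symbol to 34958 (some controls included), several to 932 and none to 9160 that are not controls. Log2 ratios (KO/WT) were taken from the signals with no offset, and each gene was read from the probe set whose mean signal was highest. Members and gene lists were chosen with earlier results of these data known. All members were named, with up to 4 expressed genes of each pathway list that had the largest Log2 ratios and reached the 75th percentile of an array (541 in WT, 532 in CD47 KO). *Mavs*, *Tank*, *Sting1*, *Pnpt1*, *Epsti1*, *Gbp6*, *Ifna1*, *Ifng* and *Ifnb1* lie outside this rule and were picked with their values in view. No test was possible with 1 array per genotype. Medians and counts of members, medians by role, the counts past 2-fold over the other pathway genes and the expressed genes named were recomputed under 10 alternatives for the signal threshold, the normalization, the treatment of low signals and the choice of probe set. The separate pathway and marker lists, the promoter splits and the counts past 1 SD were not. The calculation was tested on simulated data that held large changes in brighter genes only, so dim genes and small differences were not covered. Python 3.11.15, pandas 2.3.3, numpy 2.4.6 and statsmodels 0.14.6 were used.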

Additional observations from a re-analysis of the deposited data

How the results depend on the processing

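The median over the expressed members was -0.066 and changed sign with the settings, to 0.087 with no signal threshold, 0.27 for the 10 members at or above the 75th percentile and 0.069 without probe sets whose names mark possible cross-hybridisation or shared transcripts. At the 75th percentile *Cgas* was the single sensor left, so that the median of the sensors turned from -0.17 to 1.79, no transcription factor was left to give a value, and 7 of 10 members were higher. The median of the transcription factors was -0.046 with Log2 ratios averaged over probe sets. That of the effectors kept its sign, with 0.34 with no threshold, 0.27 averaged over probe sets and 0.35 without the marked probe sets. For sets examined after seeing the data, the median of the antiviral effectors turned from -0.17 to 0.34 with no threshold and 0.16 without the marked probe sets, that of the other effectors was 0.46 without the marked probe sets, and *Pnpt1* turned from 1.23 to -0.099 without them. The number of members more than 2-fold higher was 5 with no threshold and 2 after quantile normalization, and the number more than 2-fold lower was 0 at the 75th percentile, with the median required on both arrays and without the marked probe sets. For the other genes of the pathway, the number more than 2-fold higher was 9 with no threshold and 1 at the 75th percentile, with the median on both arrays, with the 25th percentile added to both signals and averaged over probe sets. The number more than 2-fold lower was 7 with no threshold and 0 at the 75th percentile, with the median on both arrays and without the marked probe sets. These shifts follow from which genes or probe sets are counted, apart from those of quantile normalization and of the added constant. The added constant changes the ratios themselves, that of *Azi2* from 1.07 to 0.975. The cause of the shift with quantile normalization was not tested. Of 28 expressed members, *Ddx58* and *Irf5* changed sign in at least 1 setting. *Cgas* had values between 1.66 and 1.81 in all 11 settings, the reported one included. All of them read the same *Cgas* probe set, so this range cannot speak to its dimmer probe set, which had -0.12. *Gbp3* had values between -2.19 and -1.68 in 8 settings and was not counted in the others. No paired analysis was possible because each genotype has 1 array, and no replicate could be left out.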

Other observations

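Several members lie next to each other in the genome, by the order of genes in RefSeq (GRCm38.p6). *Parp14*, *Dtx3l* and *Parp9* follow each other on chromosome 16, the chromosome that also holds *Cd47*, and had Log2 ratios (KO/WT) of 0.07, 0.56 and 0.89. *Rtp4* (0.34) and the dim *Mx1* (0.63) and *Mx2* (1.45) lie on the same chromosome, so that all 6 measured members on it were higher in CD47 KO cells, beside 49.5% of the 537 measured genes of the chromosome. Of the 6, 4 were expressed, *Parp9* on the CD47 KO array only, and all 4 were higher, beside 54.6% of its 372 expressed genes. *Oasl2* and *Oasl1* are neighbours on chromosome 5 with -0.44 and 1.07, and *Ifit2* and *Ifit3* on chromosome 19 had 0.33 and 0.35. The members on chromosome 16 were counted after their values were seen, and the cause of their direction was not tested.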
